A study of Homo sapiens with 6 samples.

Results

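Levels of 10 circadian clock genes were read from RNA sequencing of HUVECs, endothelial cells taken from the human umbilical vein and grown as a primary culture. The genes were chosen by name and by role in the clock: the activators CLOCK and ARNTL (also called BMAL1), the repressors PER1, PER2, PER3, CRY1, CRY2, NR1D2 and BHLHE40, and the output factor DBP. All 10 had a row of their own among the 20792 rows of each file. The libraries fall into 2 groups. One group, of 3 libraries, came from HUVECs transfected with the microRNA miR-483. The other, also of 3, came from HUVECs transfected with 8OH-G miR-483, a form that carries the oxidised base 8-oxoguanine. Both groups were grown in M199 medium with fetal bovine serum, endothelial growth factor and heparin, were transfected with a lipid reagent, and gave total RNA on day 2. The labels give neither the arm of miR-483 nor the guanine that is oxidised. A scramble control named in the labels was not analysed here, so each difference is one between the 2 forms of the microRNA and has no untreated reference. The labels name no donors or separate cultures and no step that would set the cells to a common clock phase, and there is 1 time point, so every p-value rests on the spread among these libraries, which may be technical, and no rhythm, phase or amplitude was measured.

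The clock is a loop of transcription and repression that runs in most cells, endothelium included. The proteins CLOCK and ARNTL pair and bind E-box sequences in the promoters of the PER, CRY, NR1D and BHLHE40 genes. PER and CRY proteins then enter the nucleus and block the pair, and BHLHE40 competes for E-boxes. NR1D1 and NR1D2 (REV-ERBα and REV-ERBβ) form another arm, since they repress ARNTL through the element that ROR receptors activate, and DBP acts on D-box elements of PER genes and of clock outputs.

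These elements were searched for by letters in the annotated promoters of the members, taken from RefSeq on GRCh38.p14 and reaching from 250 bases before to 50 bases after each start of transcription. All 10 genes matched an entry (ARNTL under its newer symbol BMAL1), with 15 windows in all because some have more than 1 start. The E-box CACGTG, which reads the same on both strands, was found in 3 members (PER1, NR1D2 and BHLHE40), in 3 of the members' 15 windows, against 7.26% of all 35116 promoters of the same length. The D-box, searched as TTACGTAA or TTATGTAA on both strands, was in 3 members (PER2, PER3 and NR1D2), again in 3 of the 15 windows, against 1.01% of all promoters. The REV-ERB/ROR motif, searched as TAGGTCA or TGGGTCA on both strands, was in 4 members (ARNTL, CLOCK, CRY2 and NR1D2), in 4 of the 15 windows, against 5.69% of all promoters. No motif of the 3 overlapped another in a member. The sequences below are those of the PER genes, the repressors that the activating pair drives, of NR1D2, the member that held all 3 motifs, and of ARNTL, the member with the clearest difference. For NR1D2 only the E-boxes are printed, and its D-box and REV-ERB/ROR matches are not. Each printed sequence is read along the gene's own strand, with the motif in capitals.
PER1 E-box: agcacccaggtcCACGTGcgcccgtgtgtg
PER2 D-box: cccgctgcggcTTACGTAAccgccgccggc
PER3 D-box: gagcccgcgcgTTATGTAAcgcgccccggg
NR1D2 first E-box: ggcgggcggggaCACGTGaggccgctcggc
NR1D2 second E-box: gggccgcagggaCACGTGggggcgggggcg
ARNTL REV-ERB/ROR motif: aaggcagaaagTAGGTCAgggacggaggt

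On GRCh38.p14 the PER1 stretch lies at chr17:8152560-8152589 on the minus strand and the PER2 stretch at chr2:238288595-238288624 on the minus strand, where the match begins 3 bases before the start of transcription. The PER3 stretch lies at chr1:7784103-7784132 on the plus strand. The NR1D2 stretches lie at chr3:23945954-23945983 and chr3:23946004-23946033, and the ARNTL stretch at chr11:13277809-13277837, all on the plus strand, the last with its match 30 bases after the start. No match was found for CRY1 or DBP, which says only that these letters are not in these windows. A match is a description of the sequence and not evidence of binding.

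**Figure D1:**
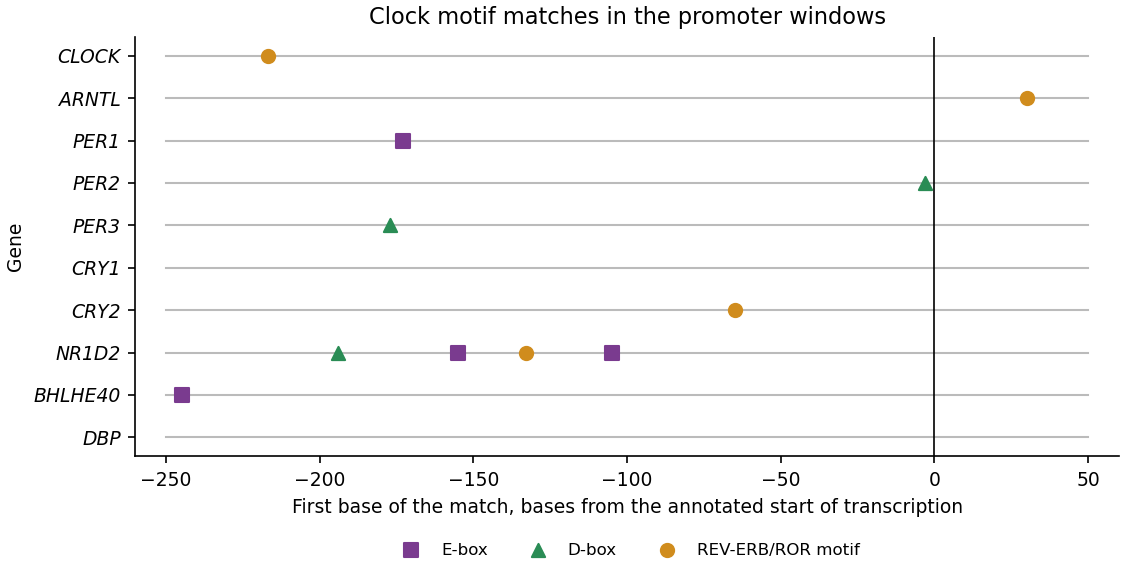
Positions of E-box, D-box and REV-ERB/ROR motif matches in the promoter windows of the 10 clock genes, with windows of a gene's several starts laid over each other. The x axis gives the first base of each match in bases from the annotated start of transcription, and each grey line is a window from 250 bases before to 50 bases after it; 8 of the 10 genes hold at least 1 match.

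Clock genes were present at modest levels, in FPKM (fragments per kilobase of gene and per fixed number of fragments sequenced, a scale corrected for gene length and inferred here from the values). BHLHE40 was the most abundant member, with a mean of 31.5 FPKM with miR-483 and 29.9 FPKM with 8OH-G miR-483. CRY1 followed at 11.7 FPKM in both groups, and then NR1D2, ARNTL, CLOCK, PER1 and CRY2 between 3.21 and 6.77 FPKM. PER2, PER3 and DBP were below 1 FPKM in every library. In this order, BHLHE40 and CRY1 stood apart from their neighbours in both groups. The libraries of PER1 and CRY2 overlapped each other in both groups, those of ARNTL and CLOCK overlapped with miR-483, those of NR1D2 and CLOCK overlapped with 8OH-G miR-483, and among the low genes DBP overlapped PER3 with miR-483 and PER2 with 8OH-G miR-483.

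**Figure D2:**
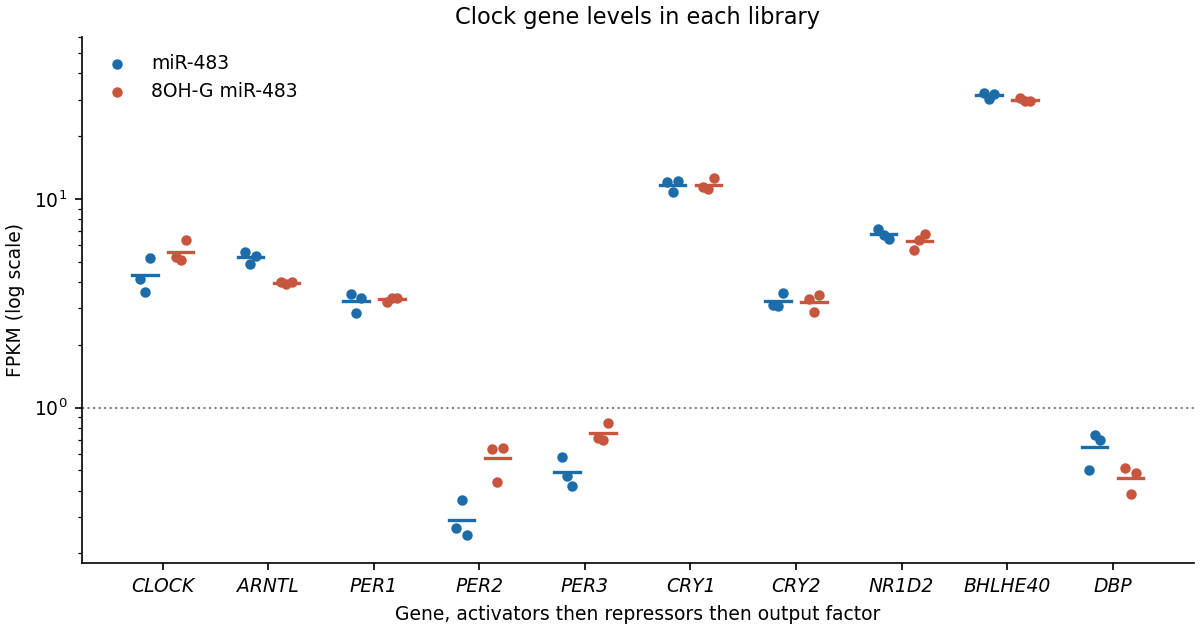
FPKM of each clock gene (y axis, log scale) in the 3 miR-483 libraries (blue) and the 3 8OH-G miR-483 libraries (red), with 1 point per library and a bar at the group mean. The groups lie apart for ARNTL, PER2 and PER3 and overlap for the other 7 genes; the dotted line marks 1 FPKM.

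The comparison asks whether the 2 forms of the microRNA left the clock transcripts at different levels. Of the members, ARNTL fell with 8OH-G miR-483, the CRY genes, PER1, NR1D2 and BHLHE40 had log2 fold changes under 0.1 in size on the deposited scale but not under every other scaling, and the low PER2 and PER3 had higher values in all 3 libraries of the oxidised form. Over all genes, limma on log2(FPKM + 1) called 55.5% of 12202 tested genes at an adjusted p of 0.05, 35.1% as higher and 20.4% as lower in the cells given the oxidised form. Genes were tested if at least 3 libraries reached 1 FPKM, which 7 of the 10 members did. Of these 7, 0 were called higher and 1 lower, and 2 had an unadjusted p below 0.05. Their median log2 fold change (8OH-G miR-483 minus miR-483, here and below) was -0.01, against 0.10 over all tested genes, and their median size of change was 0.07, against 0.29. For 5 of the 7 the size was under 0.1, a bound chosen after the values were seen, which held for 19.2% of all tested genes. After median-ratio scaling of the libraries it was 2 of the 7 (PER1 and CRY2), and after quantile normalization 0 of the 7, against 20.6% of all tested genes in each. The groups overlapped in 6 of these 7 members, while 63.4% of all tested genes had groups that did not overlap, 39.7% with higher and 23.6% with lower values in the 8OH-G miR-483 libraries.

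**Figure D3:**
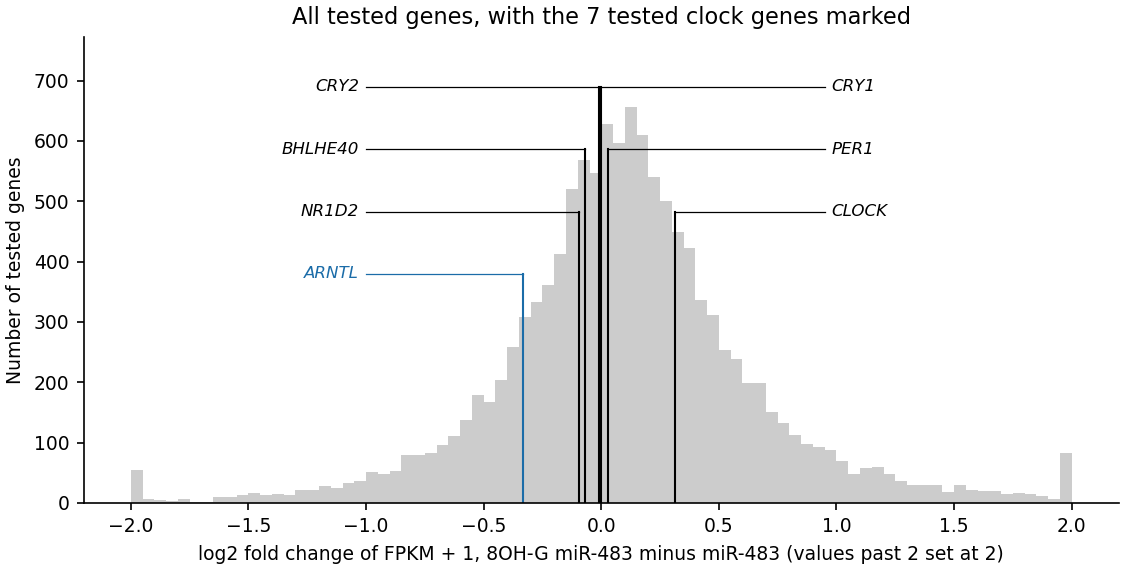
Histogram of the log2 fold change (x axis, on the log2(FPKM + 1) scale) of all 12202 tested genes, with the number of genes on the y axis, values past 2 in size drawn at 2, and vertical lines at the 7 tested clock genes. ARNTL (blue), at -0.33, was called lower; the 6 in black were not called, and CLOCK at 0.31 lies farthest to the right.

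ARNTL, the partner of CLOCK in the activating pair, measured 5.55, 4.86 and 5.33 FPKM with miR-483 and 3.99, 3.90 and 4.0 FPKM with 8OH-G miR-483. All 3 libraries of the oxidised form lay below all 3 of the unmodified form. The mean fell from 5.25 ± 0.350 to 3.96 ± 0.0547 FPKM (here and below the error is the SD over the 3 libraries of a group), or 1.32-fold, with a log2 fold change of -0.33 (SE 0.0726, 95% interval -0.50 to -0.16, adjusted p = 0.00469, limma). In these bulk samples, fewer cells that make a transcript and less of it per cell cannot be told apart. The change did not pass when tested against a fold of 1.2 (adjusted p = 0.451, limma), here and below a fold of FPKM + 1 and not of FPKM. That test was passed by 27.1% of all tested genes, 17.9% as higher and 9.22% as lower. CLOCK itself measured 4.14, 3.57 and 5.22 FPKM with miR-483 and 5.25, 5.09 and 6.33 FPKM with 8OH-G miR-483. The highest miR-483 library lay within the range of the 8OH-G miR-483 libraries, and the means of 4.31 ± 0.839 and 5.56 ± 0.677 FPKM did not pass the test (log2 fold change 0.31, interval 0.03 to 0.60, adjusted p = 0.0617, limma). Without that highest library, miR-483 replicate 3, CLOCK passed as higher (log2 fold change 0.43, adjusted p = 0.0158, limma). It did not pass when any other library was left out (adjusted p = 0.0561 to 0.182, limma). Nor did it pass after median-ratio scaling (log2 fold change 0.22, adjusted p = 0.173) or quantile normalization (0.16, adjusted p = 0.302).

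The PER genes encode the partners of the CRY proteins in the repressing complex. PER1, the most abundant of them, had 3.51, 2.85 and 3.36 FPKM with miR-483 and 3.22, 3.36 and 3.35 FPKM with 8OH-G miR-483. The range of the 8OH-G miR-483 libraries lay within that of the miR-483 libraries, and the interval of the log2 fold change, -0.16 to 0.22 around 0.03, included 0 (adjusted p = 0.801, limma). PER2 had 0.264, 0.362 and 0.245 FPKM with miR-483 and 0.632, 0.439 and 0.640 FPKM with 8OH-G miR-483. Its groups lay apart, and its mean was 1.96-fold higher, at 0.570 ± 0.114 against 0.290 ± 0.0626 FPKM. PER3 had 0.577, 0.471 and 0.420 FPKM with miR-483 and 0.717, 0.699 and 0.839 FPKM with 8OH-G miR-483. These groups also lay apart, with a mean 1.54-fold higher, at 0.752 ± 0.0763 against 0.489 ± 0.0799 FPKM. Among 5362 genes that did not reach the filter, 32.1% had groups that did not overlap, 18.1% with higher and 14% with lower values in the 8OH-G miR-483 libraries.

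Because PER2, PER3 and DBP lay under 1 FPKM, they were tested in a limma fit without the filter and with a pseudocount of 0.1, added after the values were seen, in which 42.2% of 17564 genes were called, 26.4% higher and 15.8% lower. With the pseudocount kept at 1 these shares were 42.7%, 26.7% and 16%, and PER2 and PER3 were called higher there too (adjusted p = 0.0237 and 0.0393, limma). At the pseudocount of 0.1, PER2 passed (log2 fold change 0.78, interval 0.25 to 1.30, adjusted p = 0.0261), but not without replicate 1 or replicate 3 of the unmodified form (0.0681 and 0.0769) or of the oxidised form (0.0911 and 0.0850). PER3 passed narrowly (log2 fold change 0.54, interval 0.12 to 0.95, adjusted p = 0.0428), and lost the call after median-ratio scaling of the libraries (0.0879) and when any library other than miR-483 replicate 1 was left out (0.0703 to 0.126). In GENCODE 29, 13.4% of the exon bases of PER3 also lie in exons of UTS2 on the opposite strand, and whether the authors counted by strand is not given in the sources used here.

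The cryptochromes CRY1 and CRY2, which bind the activating pair and silence it, had levels that overlapped between the groups. CRY1 had 12.1, 10.9 and 12.2 FPKM with miR-483 and 11.4, 11.2 and 12.6 FPKM with 8OH-G miR-483 (95% interval of the log2 fold change -0.18 to 0.17). CRY2 had 3.12, 3.05 and 3.53 FPKM against 3.31, 2.87 and 3.46 FPKM, a log2 fold change of -0.01 with an interval of -0.21 to 0.19. These intervals moved with the scaling of the libraries, to -0.28 to 0.07 for CRY1 and -0.30 to 0.10 for CRY2 with median ratios, and to -0.30 to 0.05 and -0.34 to 0.06 with quantile normalization.

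NR1D2, a heme-binding receptor that represses ARNTL, had 7.18, 6.73 and 6.40 FPKM with miR-483 and 5.70, 6.38 and 6.78 FPKM with 8OH-G miR-483. Its groups overlapped (log2 fold change -0.09, interval -0.28 to 0.09, adjusted p = 0.348, limma). BHLHE40, the E-box repressor also called DEC1, had 32.4, 30.3 and 31.8 FPKM with miR-483 and 30.6, 29.5 and 29.7 FPKM with 8OH-G miR-483. The groups overlapped in the lowest miR-483 and the highest 8OH-G miR-483 library, and the log2 fold change of -0.07 had an interval of -0.21 to 0.07 (adjusted p = 0.345, limma). DBP, the output factor, had 0.50, 0.740 and 0.702 FPKM with miR-483 and 0.514, 0.385 and 0.486 FPKM with 8OH-G miR-483. Its groups overlapped through miR-483 replicate 1, and the fit without the filter gave -0.40 with an interval of -0.88 to 0.07 (adjusted p = 0.154, limma). Of the exon bases of DBP, 23.0% lie in exons of SPHK2 on the opposite strand, a kinase gene that was itself at 8.97 ± 0.508 and 11.5 ± 0.975 FPKM, so the level of DBP is uncertain if strand was not used.

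These values depend in part on the scale between libraries. Scaling by median ratios took the median log2 fold change of all tested genes from 0.10 to -0.0022 and the share of higher genes among the calls from 63.2% to 50%, with 54.5% of genes called, 27.3% higher and 27.2% lower, and quantile normalization took the median to -0.01. The median of the 7 tested members went from -0.01 to -0.11 after median-ratio scaling. ARNTL fell under each scaling, with log2 fold changes of -0.42 and -0.48 and adjusted p of 0.00138 and 0.000645. BHLHE40 became a call, lower by -0.18 (adjusted p = 0.0327, limma), after median-ratio scaling but not after quantile normalization (0.0624), and NR1D2 became one, at -0.26 (adjusted p = 0.0231), after quantile normalization but not after median-ratio scaling (0.0774). PER1 changed sign under both, to -0.06 and -0.11, and was not called.

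Ratios between members within a library do not depend on a scaling factor per library. Relative to ARNTL, the PER1 level was 0.633, 0.586 and 0.631 in the miR-483 libraries and 0.809, 0.861 and 0.839 in the 8OH-G miR-483 libraries. The mean log2 ratio to ARNTL was higher with 8OH-G miR-483 by 0.44 for PER1, 1.38 for PER2, 1.03 for PER3, 0.39 for CRY2 and 0.29 for NR1D2, and in each the groups lay apart. PER2 and PER3 lay under 1 FPKM, and with 1 FPKM added to both genes of the ratio their differences were 0.61 and 0.57. Of all tested genes, 63.4% had groups apart in their own FPKM, and the share for ratios to ARNTL was not counted. All of these ratios share the lower ARNTL level as their denominator. In the fit with the filter, on the deposited scale, PER1, CRY2 and NR1D2 were not called themselves, and PER2 and PER3 were not tested. DBP, whose transcription the activating pair drives, had log2 ratios to ARNTL of -3.04 ± 0.391 and -3.11 ± 0.202, and here the groups overlapped. No test was made on these ratios.

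Around the members, a list of 38 other clock genes was ordered by role, 32 of them with a row and 30 tested (CIART was under the filter, and CSNK2B has its name on several rows). This list, too, was drawn up with earlier results of these data known. Of these 30, limma called 12 higher, 5 lower and left 13 uncalled, and their log2 fold changes had a median of 0.12, against 35.1% higher and 20.4% lower and a median of 0.10 over all genes. After median-ratio scaling the counts were 9 higher and 7 lower, against 27.3% and 27.2% of all genes. After quantile normalization they were 9 and 6, against 27% and 28% of all genes, of which 55% were called. RORB, BHLHE41, HLF and USP2 were among those not analysed here.

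**Figure D4:**
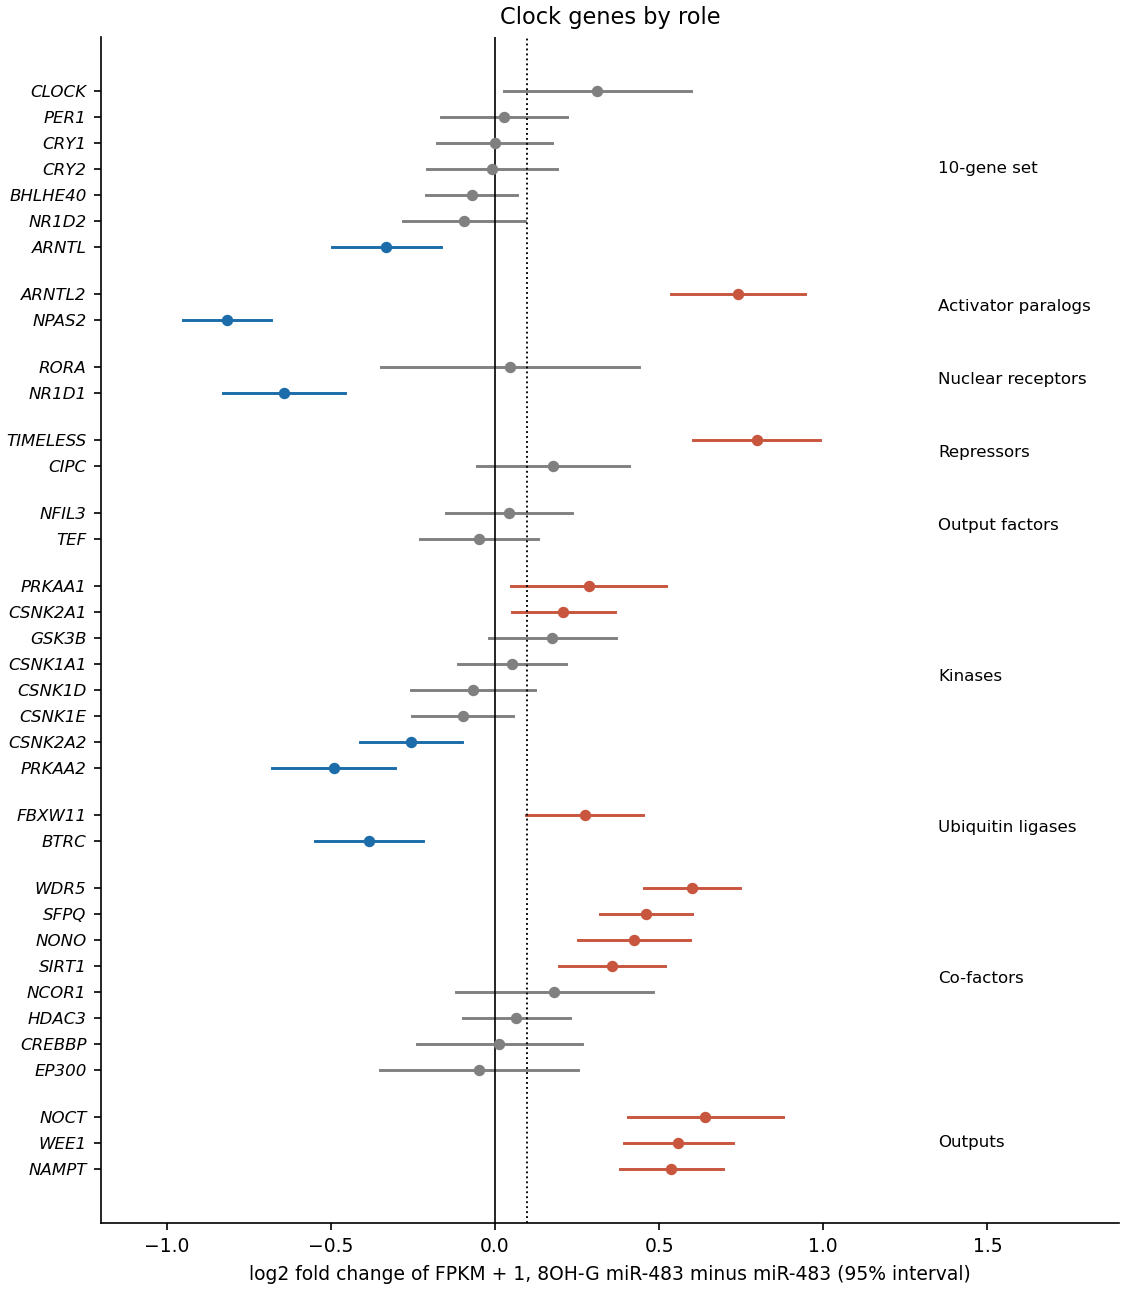
Log2 fold change with its 95% interval (x axis, on the log2(FPKM + 1) scale) for the 7 tested members of the 10-gene set and for the other clock genes whose values are given, grouped by role, with red for higher, blue for lower and grey for not called at an adjusted p of 0.05. The dotted line marks the median of all tested genes, 0.10; the paralogs ARNTL2 and NPAS2 lie on opposite sides of it.

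Both paralogs of the activators were called, in opposite directions, where 55.5% of all tested genes were called. NPAS2, which can stand in for CLOCK as the partner of ARNTL, had 64.8, 64.2 and 62.7 FPKM with miR-483 and 36.4, 36.1 and 35.0 FPKM with 8OH-G miR-483. It fell 1.78-fold, from 63.9 ± 1.05 to 35.9 ± 0.748 FPKM (log2 fold change -0.82, SE 0.0582, adjusted p = 1.03e-05, limma). An antisense gene, AC016738.1, covers 15.2% of the NPAS2 exon bases. ARNTL2, the paralog of ARNTL, had 9.38, 8.07 and 9.25 FPKM against 15.1, 14.3 and 17.2 FPKM. It rose 1.75-fold, from 8.90 ± 0.721 to 15.5 ± 1.48 FPKM (log2 fold change 0.74, SE 0.0890, adjusted p = 0.000169, limma), in the direction opposite to ARNTL. In a log2 ratio within each library, NPAS2 stood above CLOCK by 3.91 ± 0.296 with miR-483 and 2.70 ± 0.200 with 8OH-G miR-483, and ARNTL2 above ARNTL by 0.76 ± 0.0318 and 1.97 ± 0.12. On the linear scale, the ARNTL2 level was 1.70 ± 0.0375 times that of ARNTL with miR-483 and 3.92 ± 0.332 times with 8OH-G miR-483. The groups lay apart for both pairs, as did the FPKM groups of 63.4% of all tested genes. These pair ratios were added after the values were seen.

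**Figure D5:**
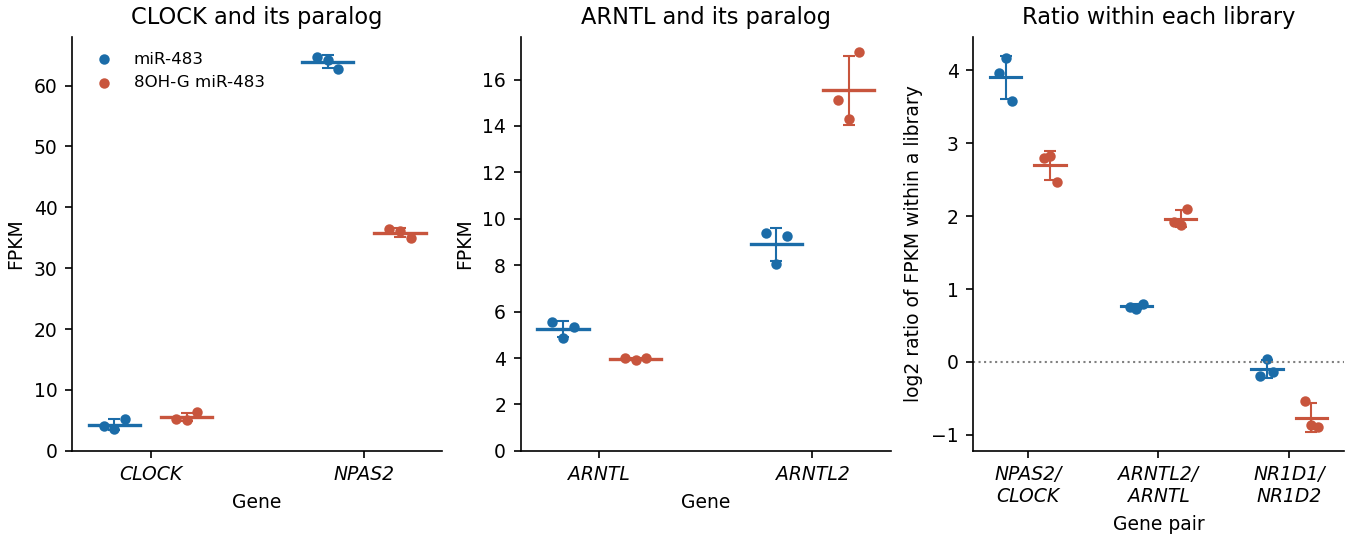
Left and middle, FPKM of CLOCK and NPAS2 and of ARNTL and ARNTL2 in each library (points, blue for miR-483 and red for 8OH-G miR-483), with the group mean and SD; right, log2 ratios of FPKM within each library for the gene pairs named under the axis. NPAS2 drops from 63.9 to 35.9 FPKM while ARNTL2 climbs from 8.90 to 15.5 FPKM.

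Among the nuclear receptors, NR1D1, the other REV-ERB gene, had 6.27, 6.94 and 5.82 FPKM with miR-483 and 3.93, 3.51 and 3.65 FPKM with 8OH-G miR-483. It fell 1.72-fold, from 6.34 ± 0.560 to 3.70 ± 0.214 FPKM (log2 fold change -0.64, adjusted p = 0.000232, limma). The log2 ratio of NR1D1 to NR1D2 was -0.10 ± 0.125 with miR-483 and -0.76 ± 0.197 with 8OH-G miR-483, and the groups lay apart. This ratio, too, was added after the values were seen. NR1D1 shares 9.49% of its exon bases with THRA, the thyroid hormone receptor gene on the opposite strand, which fell as well, from 14.5 ± 0.18 to 9.74 ± 0.191 FPKM (adjusted p = 0.000122, limma). The part of THRA reads in the NR1D1 value was not tested. RORA, the activating counterpart, had 3.88 ± 0.817 and 4.07 ± 1.11 FPKM and an interval from -0.35 to 0.44.

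Of the remaining repressors, TIMELESS, which also serves at the replication fork, rose from 5.46 ± 0.460 to 10.2 ± 0.8 FPKM (log2 fold change 0.80, adjusted p = 8.05e-05, limma), and CIPC, a repressor of CLOCK, had 4.10 ± 0.566 and 4.75 ± 0.456 FPKM (adjusted p = 0.172). CIART, another repressor, was under 1 FPKM and its groups overlapped. The output factors TEF, a relative of DBP at the same D-box, and NFIL3, its antagonist, were not called, with intervals of -0.23 to 0.13 and -0.15 to 0.23. The 3 other clock outputs, a short list chosen as above and set against 35.1% of all genes called higher, rose: the mitotic inhibitor kinase gene WEE1 from 4.88 ± 0.289 to 7.66 ± 0.375 FPKM, NAMPT, the rate-limiting enzyme of NAD salvage, from 25.9 ± 0.892 to 38.1 ± 2.29 FPKM, and NOCT (nocturnin, a circadian phosphatase, listed under its older symbol CCRN4L) from 2.40 ± 0.123 to 4.33 ± 0.665 FPKM, with adjusted p of 0.000262, 0.000234 and 0.000871 (limma). Proliferation markers moved with the groups as well. All 10 of them rose, and their summed level was 76.4 to 82.1 FPKM with miR-483 and 296 to 362 FPKM with 8OH-G miR-483. Their part in the values of TIMELESS and WEE1 was not tested.

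Of 8 tested clock kinases, 2 rose and 2 fell, a share near the 55.5% of all genes called. The casein kinase 1 genes CSNK1D and CSNK1E, whose products phosphorylate PER proteins, and CSNK1A1 were not called, with means of 47.4 ± 4.78 and 45.1 ± 1.89, of 98.5 ± 4.05 and 92.0 ± 3.85, and of 60.3 ± 0.954 and 62.7 ± 4.82 FPKM. CSNK1E became a call, lower by -0.21, after median-ratio scaling (adjusted p = 0.0245, limma), and GSK3B (10.2 ± 0.708 and 11.6 ± 1.04 FPKM) was called higher only without 8OH-G miR-483 replicate 2 (adjusted p = 0.0436, limma). CSNK1E and CSNK1A1 share 33.9% and 35.1% of their exon bases with another gene on the same strand, and CSNK1D shares 8.17% with SLC16A3 on the opposite strand, which fell, so these 3 values are uncertain. PRKAA2, an AMPK catalytic subunit that marks CRY proteins for degradation, fell from 1.19 ± 0.114 to 0.554 ± 0.0235 FPKM, and CSNK2A2, a catalytic subunit of casein kinase 2, from 38.9 ± 0.284 to 32.4 ± 2.19 FPKM (adjusted p = 0.00105 and 0.0114, limma). CSNK2A2 did not pass against a fold of 1.2 (adjusted p = 0.986, limma). PRKAA2 reached the filter only through the miR-483 libraries, where it is higher, and was not tested when all 6 libraries had to reach 1 FPKM, so its call and its place in the counts give no support. The counterpart subunits PRKAA1 (20.1 ± 2.63 and 24.7 ± 2.24 FPKM) and CSNK2A1 (47.6 ± 2.50 and 55.2 ± 2.49 FPKM) were called higher as deposited, but neither passed after median-ratio scaling (adjusted p = 0.192 and 0.258) or after quantile normalization (0.167 and 0.110). The PRKAA1 call also ended without replicate 2 or 3 of the unmodified form or replicate 1 or 3 of the oxidised form (0.0880 to 0.133), and the CSNK2A1 call without replicate 1 or 2 of the unmodified form or replicate 2 or 3 of the oxidised form (0.0551 to 0.0953).

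Among the ubiquitin ligases, BTRC and FBXW11 are paralogs that recognise phosphorylated PER proteins. BTRC fell from 7.34 ± 0.420 to 5.39 ± 0.230 FPKM (adjusted p = 0.00195, limma). FBXW11 rose from 17.2 ± 1.06 to 21.0 ± 1.49 FPKM (adjusted p = 0.0168, limma), a call that ended after median-ratio scaling (0.112), after quantile normalization (0.0948), without miR-483 replicate 2 (0.0582) and without 8OH-G miR-483 replicate 1 (0.0628). Neither BTRC nor FBXW11 passed against a fold of 1.2 (adjusted p = 0.186 and 0.874, limma).

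Of 8 co-factors, 4 rose and 0 fell by limma, against 35.1% and 20.4% of all genes, and the same 4 were called under either scaling of the libraries. Against a fold of 1.2 SFPQ and WDR5 passed, and SIRT1 and NONO did not (adjusted p = 0.287 and 0.102). The other 4 had unadjusted p from 0.203 to 0.905. SIRT1, a deacetylase that acts on ARNTL and PER2, rose from 3.66 ± 0.0113 to 4.97 ± 0.268 FPKM, WDR5, a histone methyltransferase subunit found with PER complexes, from 12.3 ± 0.388 to 19.2 ± 0.618 FPKM, and the PER-associated RNA-binding protein genes NONO and SFPQ 1.34-fold and 1.38-fold. HDAC3 and NCOR1, the co-repressors that NR1D1 recruits, were not called (23.7 ± 1.41 and 24.8 ± 1.19, and 18.8 ± 2.61 and 21.4 ± 3.33 FPKM), nor were the acetyltransferase genes CREBBP and EP300. NCOR1 was called higher without 8OH-G miR-483 replicate 2 (adjusted p = 0.0441, limma).

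As a description of likeness, the genes whose values followed ARNTL most closely over the 6 libraries once the group means were removed were CCDC136, VANGL1 and MBTD1 (Pearson r of 0.999, 0.998 and 0.997 on log2(FPKM + 1), the highest among 12201 genes). For CLOCK they were PXN, NAP1L5 and TIMM23B (0.996, 0.993 and 0.993). These points share library depth, and with so few of them no test was made. The highest of 12201 r values over 6 libraries can be this high without any link between the genes.

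Facts of the libraries bear on all of these values. Totals ran from 1396537 to 1440422 FPKM in the miR-483 libraries and from 1598260 to 1687283 FPKM in the 8OH-G miR-483 libraries, without overlap, of which mitochondrial rows took 71.3% to 76.6%, and read depth is unknown. Without the mitochondrial rows, totals were 343183 to 400189 FPKM with miR-483 and 395006 to 418883 FPKM with 8OH-G miR-483, and these overlapped. All 10 endothelial markers had values above 0 in every library, with a summed level of 2266 to 2303 FPKM in the miR-483 libraries and 1439 to 1679 FPKM in the 8OH-G miR-483 libraries. Of them 6 were called lower, against 20.4% of all tested genes, and KDR, ERG, EGFL7 and ESAM were not called. After median-ratio scaling ESAM was called lower too (adjusted p = 0.0173, limma). Leukocyte markers summed to 52.5 to 56.7 and 45.2 to 49.6 FPKM over the 3 of 8 with a row, of which CD68 fell. The most abundant of them, LAPTM5, had means of 38.8 and 40.1 FPKM and was not called. LYZ, which reached the filter only through the miR-483 libraries, had means of 4.03 and 0.109 FPKM and was listed at 0 in 8OH-G miR-483 replicate 2. Mural and fibroblast markers summed to 4.21 to 4.49 and 3.40 to 4.28 FPKM over 4 of 8 with a usable row, of which COL3A1 fell, while below the filter LUM (means of 0.0697 and 0.466 FPKM, groups apart, listed at 0 in miR-483 replicate 3) and DCN (0.0856 and 0.307 FPKM, groups overlapping) had higher means with 8OH-G miR-483. In the fit without the filter, at a pseudocount of 1, LUM passed (adjusted p = 0.00164, limma) and DCN did not (0.108). Values of ACTA2 overlapped. Epithelial markers summed to 71.0 to 81.6 and 127 to 144 FPKM over 3 of 6, where KRT18 rose (means of 61.1 and 120 FPKM). KRT8 (11.5 and 11.0 FPKM) and KRT19 (4.63 and 6.08 FPKM) were not called. No erythroid marker was analysed here. The part of these shifts in the clock gene values was not tested.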

How the data were processed

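Each of the 6 deposited files holds 1 column of decimal values. Among tools, cutadapt, STAR, HTSeq and DESeq2 appear in the submitters' processing notes, with the build hg19 and no versions or order. Annotation and strand handling: not given in the sources used here. The unit of the deposited values is not named and was taken as FPKM, since column totals, from 1396537 upward, are too high for CPM or TPM. Low values of 845 genes gave no whole-read steps (at the best depth ratio tried, 20.4% lay within 0.02 log2 of whole reads, against a median of 16.7%), so depth is unknown and no counting interval is given.

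Names on 1 row were used (17588, less date-like names), which left out CSNK2B; in miR-483 replicate 1 alone, most repeated names carry differing values. Genes at 1 FPKM or more in at least 3 libraries were kept, log2(FPKM + 1) was taken, and limma 3.58.1 (R 4.3.3) was run with a trended, robust prior (group only, Benjamini-Hochberg over all tested genes, threshold 0.05), after a check on simulated data. The count test was not used because no counts are held. All members and, by role, the other clock genes are named, except for results not reported here; older symbols were matched through reference tables. Members and lists were chosen with earlier results of these data known. Ratios of the paralog pairs and of NR1D1 to NR1D2 were added after the values were seen. Promoter sequences are from RefSeq (GRCh38.p14), and exon overlaps from GENCODE 29. Both differ in build from the hg19 of the notes, so no position was joined to the files. Matches to miR-483 seeds were not analysed here. Figures were drawn with matplotlib 3.10.9.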

Additional observations from a re-analysis of the deposited data

How the results depend on the processing

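ARNTL was called lower in all alternatives but the test against a fold of 1.2 (adjusted p from 0.000645 to 0.0225 in the others), and PER1, CRY1 and CRY2 were not called in any. Of the 37 clock genes tested, 20 kept their side of the threshold in all 17 alternatives, and TEF and PRKAA2 kept theirs wherever tested, which the filter of 1 FPKM in all 6 libraries did not allow. For PRKAA2, which reached the filter only through the miR-483 libraries, the kept call gives no support. Members called higher, 0 in the reported fit, were 2 without the filter at either pseudocount (PER2 and PER3), 1 (PER2) without the filter at a pseudocount of 0.1 after median-ratio scaling, and 0 to 1 when a library was left out. Members called lower, 1 as reported, were 2 after median-ratio scaling, with or without the filter, and 2 after quantile normalization, 0 against a fold of 1.2, and 1 whichever library was left out. Against a fold of 1.2, 3307 genes, 7 higher and 3 lower among the other clock genes, passed. PRKAA2 is among those lower and gives no support there either. With the replicate block, 1 member was called higher: CLOCK (adjusted p = 0.00883). Same-numbered deviations correlated at 0.025, 0.339 and 0.009, and differently numbered ones at -0.266 to 0.244. With 3 libraries per group, these values cannot show whether the replicate numbers pair the libraries. The 3 libraries per group and the unknown depth limit all values, most of all those of PER2, PER3 and DBP. Seed-match alternatives were not run.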
